A study of Mus musculus with 6 samples.

Results

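Of the 2919 chromatin peaks that a mouse glial cell line gave with probes against *LncRNA-HIT*, 1186 lay in the body of a protein-coding gene and overlapped no peak of the limb, and these glial-only gene-body peaks are described here. They were chosen by the peak calls themselves, from the position of each glial peak relative to the limb peaks (no shared base) and to the annotated genes (at least 1 shared base), with no requirement on peak strength. The first step kept 2815 of the 2919 glial peaks, and the second kept 1186 of those 2815. Because the 2 peak lists defined the group, its absence from the limb list is a property of the choice and not a result.

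*LncRNA-HIT*, called Hotchon in the sample labels, is a long non-coding RNA of the limb transcribed from within the HoxA cluster, between *Hoxa11* and *Hoxa13*. ChIRP-seq (chromatin isolation by RNA purification) captures an RNA with tiled biotin-tagged DNA oligonucleotides and sequences the DNA that is pulled down with it. Any DNA that the oligonucleotides bind directly, or that sticks to the beads, is sequenced as well, so the assay is run with separate probe sets and on cells without the RNA. In this series the limb mesenchyme came from the distal part of embryonic day 11 limb buds, pooled over many embryos, and the control was a murine glial cell line, labelled as coming from embryonic whole brain and as not expressing the RNA. All libraries carry the strain label Swiss Webster, and for the glial line the sources disagree on an embryonic stage, so none is used. Each tissue had 3 libraries, namely an odd probe set, an even probe set and 1 input, and the authors combined the odd and even libraries into 1 track before peaks were called, so each tissue has 1 peak list and no replicate list.

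Gene bodies are mostly intron, and long genes are common among those that build synapses and guide axons. Exons and promoters are generally richer in G and C than introns. The positions of control peaks within genes are therefore described by exon, promoter, gene length and sequence content. No expression data were part of the files, so whether a gene named here is active in the glial line was not measured.

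The sequences of the glial-only gene-body peaks that came closest to a probe are shown first, since the probes are DNA and can bind matching DNA. Among the 25 probes of 20 bases each, the longest stretch identical to a probe, on either strand, was 14 bases in 3 peaks and 13 bases in 8 others. Those 3, and the 2 strongest of the 8, are printed from the + strand of mm9, with the identical stretch in capitals in the peak and in the probe below it. The peak in an intron of *Sec13*, a component of the nuclear pore and of COPII coats, is shown at chr6:113681290-113681409. An intronic peak of *Smyd4*, a SET and MYND domain protein, is shown at chr11:75207016-75207135. The peak of *Mas1*, a G protein-coupled receptor for angiotensin-(1-7), is shown at chr17:13036799-13036918. The peak at a coding exon of *Tet3*, a dioxygenase that oxidizes 5-methylcytosine, is shown at chr6:83353652-83353771. The last is an intronic peak of *Agap1*, an ARF GTPase-activating protein, at chr1:91747629-91747703. In *Sec13* and *Tet3* the printed strand carries the reverse complement of the stretch in the probe.
Sec13 peak: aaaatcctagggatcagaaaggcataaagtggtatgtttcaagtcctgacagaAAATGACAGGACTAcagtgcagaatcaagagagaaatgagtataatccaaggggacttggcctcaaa
probe 6, even set: cTAGTCCTGTCATTTcaaca
Smyd4 peak: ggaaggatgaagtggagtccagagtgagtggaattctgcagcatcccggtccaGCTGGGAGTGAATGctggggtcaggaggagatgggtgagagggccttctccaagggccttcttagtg
probe 16, even set: gtgaggGCTGGGAGTGAATG
Mas1 peak: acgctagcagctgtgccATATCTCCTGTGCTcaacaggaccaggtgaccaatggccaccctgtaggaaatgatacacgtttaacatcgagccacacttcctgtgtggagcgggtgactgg
probe 25, odd set: acacaATATCTCCTGTGCTg
Tet3 peak: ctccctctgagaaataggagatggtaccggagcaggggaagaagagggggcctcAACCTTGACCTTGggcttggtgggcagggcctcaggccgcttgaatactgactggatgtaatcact
probe 7, odd set: CAAGGTCAAGGTTtaaggcc
Agap1 peak: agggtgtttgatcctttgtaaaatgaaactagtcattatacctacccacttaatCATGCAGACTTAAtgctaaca
probe 4, even set: caCATGCAGACTTAAgagca

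None of these 5 peaks was among the 10 strongest. Peak strength is given as −log10(p), where p is the value that the peak caller MACS assigned against the input, and read counts for single peaks are not in the files. On this scale *Tet3* stood at 86.1, *Sec13* at 81.4 and *Agap1* at 78.0. *Smyd4* reached 17.3, and *Mas1* 9.18. The *Tet3* peak also had the closest ungapped match of any glial-only gene-body peak, with 17 of 20 bases identical to a probe.

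For the strongest glial-only gene-body peaks made of largely unique sequence, the central 300 bases are shown. The peaks printed above were chosen for their long stretches identical to a probe. Shorter stretches in the peaks shown here therefore follow largely from that choice. A peak is called low in repeats here when under 10% of its 24-base words occur more than once in mm9. The peak at *Ntng1*, which encodes the axonal membrane protein netrin-G1, is shown at chr3:109755037-109755336. The *Pard3b* peak, in a gene for a partner of the PAR cell polarity proteins, is shown at chr1:61999687-61999986. The third lies at *Wdfy4*, known for its role in antigen cross-presentation by dendritic cells, and is shown at chr14:33920336-33920635. The + strand of mm9 is printed, and capitals mark coding exon, which only the *Wdfy4* stretch holds.
Ntng1 peak: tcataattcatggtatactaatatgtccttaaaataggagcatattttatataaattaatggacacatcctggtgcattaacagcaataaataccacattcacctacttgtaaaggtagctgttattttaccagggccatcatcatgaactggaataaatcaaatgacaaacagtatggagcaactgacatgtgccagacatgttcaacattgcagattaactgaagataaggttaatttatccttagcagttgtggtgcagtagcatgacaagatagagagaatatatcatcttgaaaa
Pard3b peak: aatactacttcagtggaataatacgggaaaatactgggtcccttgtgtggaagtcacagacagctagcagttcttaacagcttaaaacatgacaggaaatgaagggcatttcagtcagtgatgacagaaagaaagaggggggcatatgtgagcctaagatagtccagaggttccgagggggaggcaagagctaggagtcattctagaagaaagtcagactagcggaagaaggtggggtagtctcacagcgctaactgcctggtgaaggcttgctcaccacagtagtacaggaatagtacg
Wdfy4 peak: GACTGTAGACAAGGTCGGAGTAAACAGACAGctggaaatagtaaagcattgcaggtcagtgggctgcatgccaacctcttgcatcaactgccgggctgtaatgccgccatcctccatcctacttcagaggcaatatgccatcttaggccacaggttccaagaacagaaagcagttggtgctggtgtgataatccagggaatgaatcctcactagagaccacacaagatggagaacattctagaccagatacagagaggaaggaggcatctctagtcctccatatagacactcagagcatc

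The best match to any probe was 14 of 20 bases in each of these 3 peaks. The *Ntng1* peak had a −log10(p) of 147 and a GC content of 33.8%. The *Pard3b* peak reached 135 and the *Wdfy4* peak 121, with GC contents of 45.3% and 48.8%. Repeated words made up 4.09% of the *Ntng1* peak and 0% of both others, so all 3 were nearly or wholly unique in the genome.

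Resemblance to the probes was about as frequent in glial-only gene-body peaks as in gene bodies at large. A match of at least 15 of 20 bases to a probe on either strand was present in 136 of 1186 peaks, or 11.5% (95% Wilson interval 9.78 to 13.4%). Because longer peaks have more room for a match, the comparison was repeated in windows of 407 bases, the median width of the glial peaks. Centred on the peaks, 11.0% of the windows held such a match (9.39 to 13%), and 10.1% of all 2426367 consecutive windows of this length in gene bodies did. In limb-only gene-body peaks, selected the same way with the lists exchanged, the share was 19.4% (17.4 to 21.7%, n = 1260), and the 2 intervals did not overlap. A stretch of at least 12 identical bases was found in 31 glial-only gene-body peaks (2.61%, 1.85 to 3.69%) and in 92 limb-only gene-body peaks (7.30%, 5.99 to 8.87%). Matches of at least 15 of 20 bases to probes of the odd and of the even set occurred together in 3 glial-only gene-body peaks (0.253%, 0.0861 to 0.741%). In limb-only gene-body peaks they did so in 7 (0.556%, 0.269 to 1.14%). The intervals in this report cover counting error only, and with 1 list per tissue no test over replicates could be made.

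Of the simple repeats, CA runs were somewhat more frequent in the peaks than in gene bodies at large, and GA runs were rarer. A run of alternating CA or TG of at least 24 bases lay in 5.14% of the centred windows (4.02 to 6.55%), against 3.57% of all gene-body windows and 4.76% of limb-only gene-body peaks (3.72 to 6.08%). A run of GA or TC of that length lay in only 8 of the 1186 windows, 0.675% (0.342 to 1.33%). The share was 1.40% of all gene-body windows and 1.51% of limb-only gene-body peaks (0.967 to 2.34%), and the intervals of the 2 lists overlapped. The GC content of the centred windows had a median of 43.9%, and the median of all gene-body windows was 42.8%. Most peaks were in unique sequence: 928 of 1186 were low in repeats (78.2%, 75.8 to 80.5%), a share close to the 79.4% of limb-only gene-body peaks (77.0 to 81.5%). Both lists come from uniquely mapped reads, and this share was not computed over all gene-body windows. Glial-only peaks outside gene bodies were low in repeats less often, at 66.3% (64 to 68.6%, n = 1629). The 61 glial peaks in gene bodies that did overlap a limb peak, which are outside the group, were low in repeats in 26.2% of cases (16.8 to 38.4%).

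The share of glial-only peaks in gene bodies was slightly above that of genome positions. Gene bodies took up 1186 of the 2815 glial-only peaks, 42.1% (40.3 to 44.0%). Of all positions that a 407-base window can take in the known sequence of mm9, 39.2% touch a protein-coding gene. For limb-only peaks the figure was 45.5% (43.7 to 47.4%), or 1260 of 2769. A single gene was overlapped by 1168 of the 1186 peaks, and 18 peaks overlapped 2 genes.

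Peak strength ran from a −log10(p) of 6.29 to 270, with a median of 30.8 and a middle range of 15.4 to 53.1. At the p-value cutoff the study used to pick limb peaks, 5.9e-57, 254 of the 1186 glial-only gene-body peaks remained (21.4%, 19.2 to 23.8%). For limb-only gene-body peaks the median was 35.0, and 26.5% of them met that cutoff (24.1 to 29.0%). The lists were called against different inputs, so strengths from one list and the other are set side by side only. Shared glial peaks in gene bodies had 65.6% at or beyond the cutoff (53.0 to 76.3%). Within the whole glial list the strongest glial-only gene-body peak ranked 12th. Of the first 100 peaks, 22 were in the group, a smaller share than its 1186 of all 2919 peaks.

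Exons were overlapped by 200 of the 1186 peaks (16.9%, 14.8 to 19.1%), and 986 touched intron only (83.1%, 80.9 to 85.2%). Among the 200, 142 touched coding exon (12% of all, 10.2 to 13.9%) and 58 touched exon without coding sequence. Of all window positions in gene bodies, 15.4% touch an exon and 10.9% a coding exon, and both values lay inside the intervals of the peaks. The limb-only gene-body peaks were above these position values, with 20.6% at an exon (18.4 to 22.9%) and 15.6% at a coding exon (13.7 to 17.7%). The exon intervals of the glial-only and limb-only gene-body peaks overlapped, from 18.4 to 19.1%.

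Promoters were not overrepresented among the peaks. Within 1 kb of the annotated 5′ end of a gene lay 39 peaks (3.29%, 2.41 to 4.46%), and 3.22% of gene-body window positions do. Limb-only gene-body peaks gave 2.70% (1.94 to 3.75%). Shared glial peaks in gene bodies gave 34.4% (23.7 to 47.0%, n = 61), and 52.5% of them touched an exon (40.2 to 64.5%), so the peaks removed by the overlap with the limb list differed from the glial-only ones in both shares. The shared peaks were also wider, with a median of 608 bases against 407, and 14 of the 61 lay in *Sfi1*. Their shares were not recomputed at equal width.

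**Figure D1:**
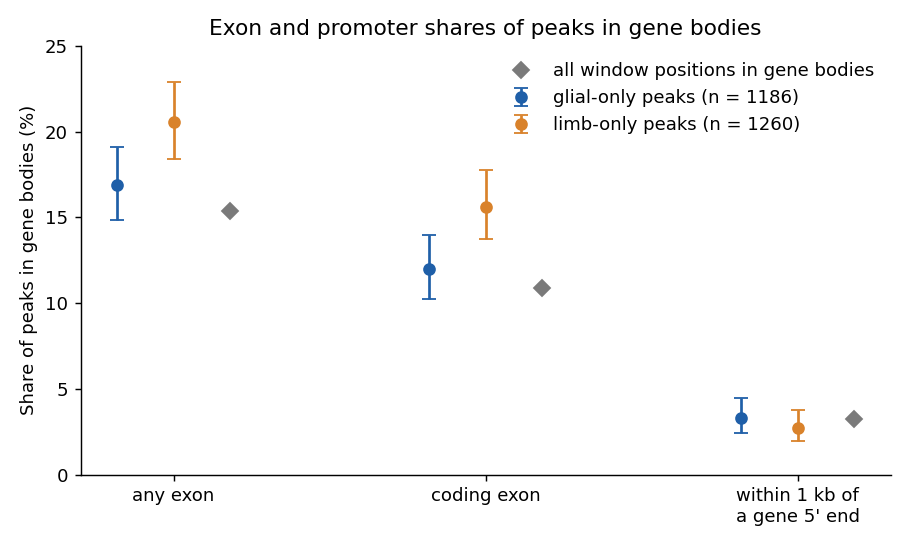
Share of gene-body peaks that overlap any exon, that overlap a coding exon, and that lie within 1 kb of a gene's 5′ end, in percent, for glial-only peaks (blue) and limb-only peaks (orange) with 95% Wilson intervals as bars; grey diamonds are the shares of all 407-base window positions in gene bodies. The glial-only exon share of 16.9% has the position value of 15.4% inside its interval, and the limb-only share of 20.6% lies above it.

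Strength differed little between the parts of a gene. With promoter peaks set apart, the groups were 39 promoter peaks, 173 exon peaks and 974 intron peaks. Their median −log10(p) values were 24.8, 30.9 and 31.3 in that order, each far inside the spread of the peaks. The lowest and highest values were 6.29 and 127 at promoters, 7.63 and 270 at exons, and 7.84 and 147 in introns. GC content fell from a median of 51.7% at promoters through 46.9% at exons to 43.5% in introns, the order in which these parts of genes generally rank.

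**Figure D2:**
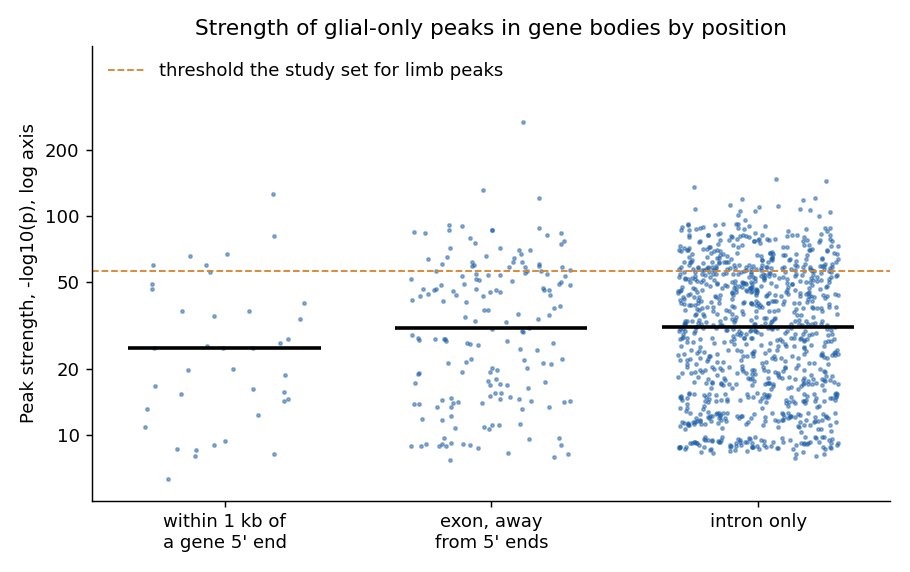
Peak strength as −log10(p) on a log axis for each glial-only gene-body peak (1 point per peak, spread sideways for visibility), by position in the gene; black lines are medians and the dashed line is the cutoff the study used for limb peaks, at a −log10(p) of 56.2. The medians of 24.8, 30.9 and 31.3 lie close together, within point clouds that span from below 10 to above 100 in every position.

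The strongest peaks were spread over genes of unrelated function. *Sfi1*, which encodes a centrin-binding protein of the centrosome, held 3 of the 5 strongest, at a −log10(p) of 270, 144 and 132. Between them stood *Ntng1* and *Pard3b*, already described. A peak at 127 overlapped both *Zfp58* and *Zfp87*, neighbouring zinc finger genes on chromosome 13. *Wdfy4* came next. An intronic peak of *Nav2*, a neuron navigator gene, had 121, and one of *Aff3*, which encodes a nuclear protein of the AF4 family, had 119. The tenth was in an intron of *Smad2*, the transducer of TGF-beta and activin signals, at 118. Of these 10, 6 were not low in repeats. Repeated words made up 81.5% of the *Smad2* peak, 36.6%, 51.0% and 10.4% of the *Sfi1* peaks in order of strength, 14.5% of the *Zfp58* and *Zfp87* peak and 10.9% of the *Nav2* peak.

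The weakest 3 peaks lay in *Gm11167*, *Apc2* and *Ank3*. *Gm11167* stood at a −log10(p) of 6.29, and 96.7% of its 24-base words were repeated, with a median of 33 copies. *Apc2*, a relative of the APC tumour suppressor, had 7.63 at an untranslated exon. *Ank3*, which encodes the ankyrin of axon initial segments, had 7.84 in an intron. The *Apc2* peak held no repeated word.

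Coding exons carried some of the strongest peaks. The 5 strongest were those of *Sfi1* (270 and 132), the *Zfp58* and *Zfp87* pair (127), *Wdfy4* (121) and *Slc12a1* (89.7). *Slc12a1* encodes the sodium, potassium and chloride cotransporter of the kidney, and its peak lay 2.04 kb from a limb-only peak in the same gene.

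Peaks near promoters were mostly weaker than these. After *Zfp87*, the strongest was at *Golga7b*, with a −log10(p) of 81.5, and its 432 bases covered the annotated start of the gene. It was followed by *Pcdhb15*, a clustered protocadherin gene, at 67.0 and *Baiap3* at 65.5. *Nop56*, which encodes a core protein of box C/D small nucleolar ribonucleoproteins, and *Clec4b2*, a C-type lectin gene, both had 59.8. *Unc45a*, whose product is a myosin chaperone, had 55.6, and *Gm597* had 48.7. The peaks of *Zfp87*, *Golga7b* and *Unc45a* covered the annotated 5′ end itself, and the 5 others lay inside the gene, with their near edge 335 to 905 bases from it.

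Bases around the 5′ ends of *Golga7b* and *Unc45a* are shown because these peaks lie on the ends and are free of repeated words. Both stretches are from mm9 and printed along the gene's own strand, which is + for *Golga7b* (chr19:42322004-42322123) and − for *Unc45a* (chr7:87485832-87485951). Capitals mark the bases from the annotated 5′ end into the gene.
Golga7b peak: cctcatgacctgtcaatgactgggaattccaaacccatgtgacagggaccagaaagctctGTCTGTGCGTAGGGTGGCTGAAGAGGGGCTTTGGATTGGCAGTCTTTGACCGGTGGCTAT
Unc45a peak: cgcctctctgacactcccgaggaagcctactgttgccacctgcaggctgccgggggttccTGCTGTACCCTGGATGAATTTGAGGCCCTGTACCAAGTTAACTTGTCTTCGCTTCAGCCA

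Along the gene, peaks became more frequent away from the 5′ end. Of the 1170 peaks whose midpoint lay inside the gene, 251 were in the first of 4 equal parts of its length (21.5%, 19.2 to 23.9%), 285 in the next, 308 in the one after and 326 in the last (27.9%, 25.4 to 30.5%). Limb-only gene-body peaks had 20.8% in the first part (18.6 to 23.1%) and 27.2% in the last (24.8 to 29.7%). The order of the first and last part was the same in both lists.

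Genes holding a glial-only peak numbered 916 of the 22380 protein-coding genes in the annotation, or 4.09%, and 4.58% held a limb-only peak (1025 genes). The 916 entries carried 913 different symbols. They were long genes, with a median of 110 kb against 15.4 kb for all protein-coding genes, and genes with a limb-only peak had a median of 99.2 kb. From genes under 10 kb to genes over 1000 kb, the share holding a glial-only peak rose from 0.439% (0.322 to 0.600%, n = 8874) to 61.5% (48.0 to 73.5%, n = 52). Per Mb of gene the number of peaks was nearly flat, between 1.09 and 1.21 in the 6 length classes. Longer genes therefore held a peak more often, at a similar density.

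**Figure D3:**
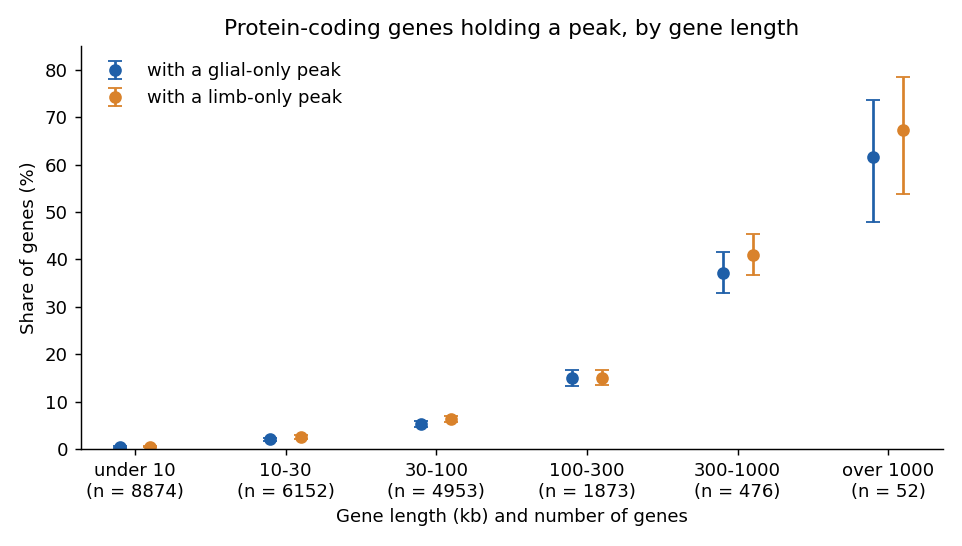
Share of protein-coding genes, in percent, that hold at least 1 glial-only peak (blue) or limb-only peak (orange), by gene length in kb with the number of genes under each class; bars are 95% Wilson intervals. Both shares rise together, from under 1% of genes shorter than 10 kb to 61.5% and 67.3% of genes longer than 1000 kb.

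Most of the 916 genes, 742, held exactly 1 glial-only peak. There were 110 genes with 2 peaks and 64 with 3 or more, so 174 genes held several, and 456 of the 1186 peaks lay in them. The genes with several peaks had a median length of 273 kb.

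*Sfi1* on chromosome 11 had the most, 12 peaks in 61.6 kb, from a −log10(p) of 18.6 to 270 with a median of 47.3. The gene was also crowded with other peaks: 14 further glial peaks overlapped limb peaks, and 11 peaks were limb-only. All 12 glial-only peaks had over 10% repeated words (10.4 to 60.9%), and 6 of them touched an exon. A limb peak lay within 1 kb of 7 of the 12. Whether reads from related copies contributed to these peaks was not tested.

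The next place was shared by 3 genes with 8 peaks each, and none of the 3 held a limb peak. *Nlgn1* encodes neuroligin-1, a postsynaptic adhesion protein, and spans 702 kb on chromosome 3. Its peaks, in order from the 5′ end, had −log10(p) values of 22.1, 104, 17.3, 61.9, 92.3, 21.1, 89.4 and 35.8, all in introns. The first 4 lay together in 7.31 kb, the fifth and the sixth stood alone, and the last 2 lay side by side near the 3′ end. *Csmd1*, a large gene of CUB and sushi domains on chromosome 8, spans 1643 kb, but 6 of its 8 peaks lay between 1312 and 1325 kb from the 5′ end. Those 6 had values of 83.7, 56.3, 9.18, 40.2, 35.5 and 12, and both peaks elsewhere in the gene were weak, at 9.15 and 9.16. *Btbd11*, a BTB domain and ankyrin repeat gene on chromosome 10, held 5 peaks within 5.91 kb. There the outer peaks, at 70.3 and 77.8, enclosed 3 weak ones of 13.2, 8.32 and 8.18.

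Genes with 5 to 7 peaks showed both scattered and crowded arrangements. *Ctnna3*, which encodes alpha-T-catenin, had 7 peaks from 8.55 to 38.1 spread over 1574 kb. *Nrg3*, for the ErbB4 ligand neuregulin-3, had 6 from 23.7 to 63.6. In contrast, all 5 peaks of *Rala*, which encodes a Ras-like GTPase, lay within 8.88 kb at the 3′ end of a 63.7 kb gene, with even values of 40.5 to 55.2. *Opcml*, an opioid-binding cell adhesion gene, had 5 peaks from 11.5 to 64.5. The entry *Fgfr2*, named for an FGF receptor needed in limb outgrowth, had 5 from 16.4 to 66.1, but 1 of its 29 transcripts runs over 3009 kb and 32 other protein-coding genes. None of the 5 peaks lay in any of the other transcripts, the longest of which spans 104 kb, and 2 of the 5 lay in another protein-coding gene, so these peaks cannot be assigned to the receptor gene.

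Among the genes with 4 peaks, *Nrxn3*, *Zfp868* and *Rims1* had the highest summed strength. The neurexin gene *Nrxn3* had values of 76.7, 9.45, 46.7 and 112 along its 1612 kb. *Zfp868*, a zinc finger gene of 14.7 kb, had 33.0, 29.4, 74.9 and 58.2, all touching an exon. *Rims1*, for an active zone protein of the presynapse, had 63.6, 73.9, 32 and 24.4, all in introns.

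**Figure D4:**
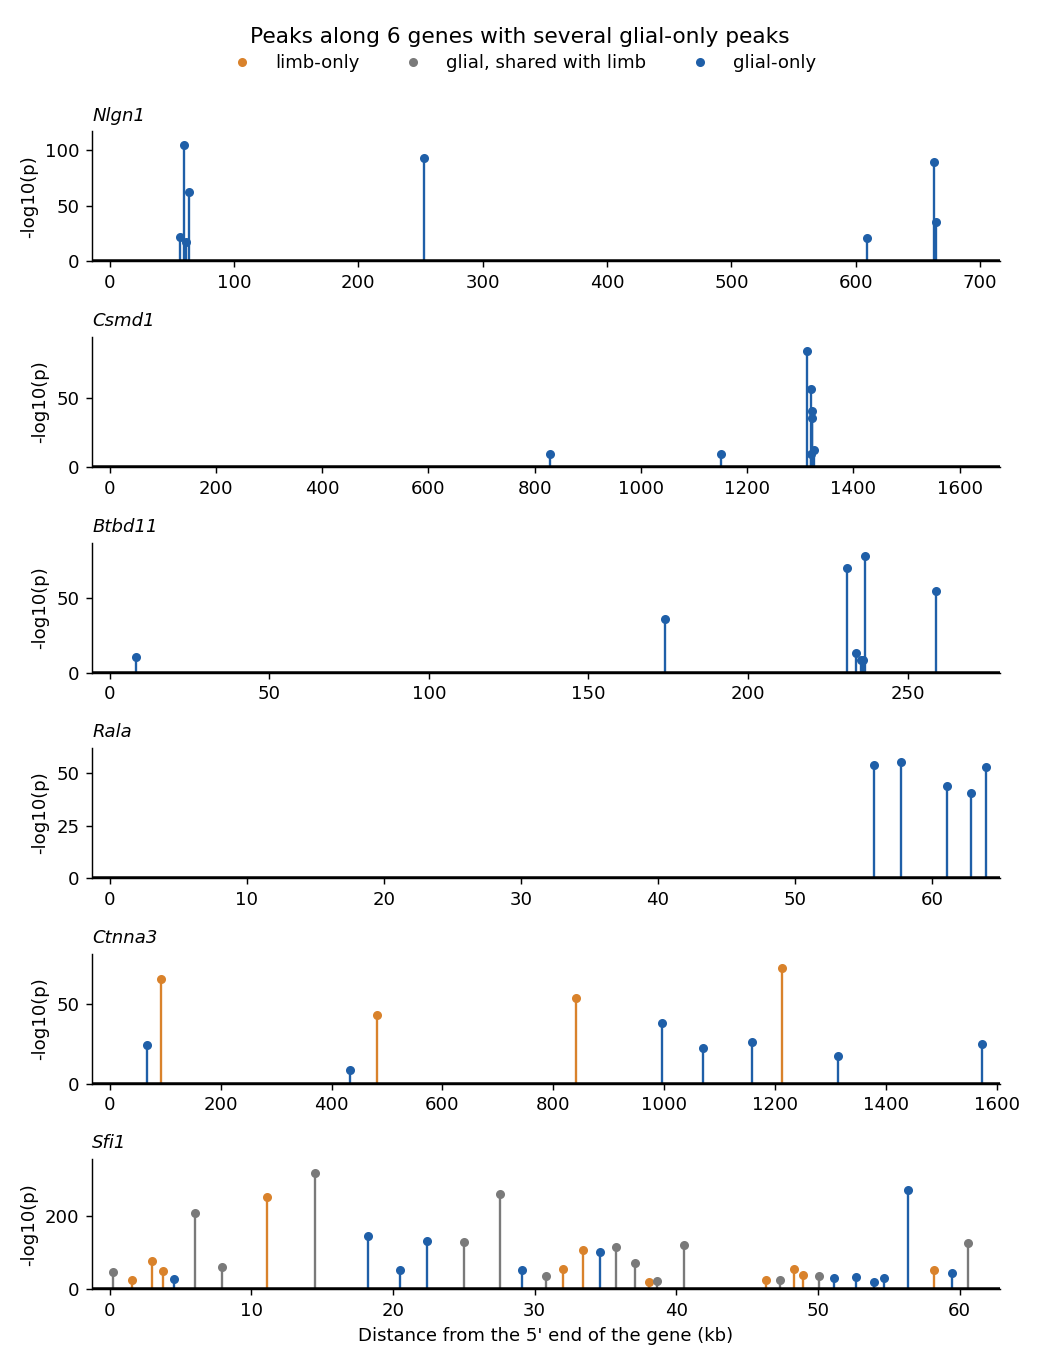
Peaks along 6 genes that hold several glial-only peaks, drawn from the 5′ end (left) in kb; the height of each line is the −log10(p) of a peak, and colours give glial-only peaks (blue), glial peaks shared with the limb (grey) and limb-only peaks (orange). *Nlgn1*, *Csmd1*, *Btbd11* and *Rala* hold glial-only peaks alone and in tight groups, those of *Ctnna3* are scattered, and *Sfi1* holds all 3 kinds.

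Crowding within a gene was common in both lists. Between neighbouring glial-only peaks of the same gene there were 288 gaps, with a median of 10.9 kb, and 117 of them were under 5 kb (40.6%). Limb-only gene-body peaks had 274 gaps with a median of 9.16 kb, and 42.0% were under 5 kb. Counted by peak, 193 of the 1186 glial-only gene-body peaks had another one of the group under 5 kb away in the same gene (16.3%, 14.3 to 18.5%), and 15% of limb-only peaks did so within their own list (13.1 to 17.1%). A limb-only peak stood that close to 31 glial-only gene-body peaks (2.61%, 1.85 to 3.69%). These 2 intervals did not overlap, but limb peaks that shared a base with a glial peak had been removed by the choice of members.

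The 193 crowded peaks formed 77 groups, of which 28 held 3 or more peaks and 6 held 4 or more. Besides *Sfi1*, *Btbd11*, *Csmd1*, *Rala* and *Nlgn1*, the groups of at least 4 included *Slc34a2*, a phosphate transporter gene with 4 peaks in 6.26 kb, which is named because of its group size. The median −log10(p) was 39.7 for crowded peaks and 29.8 for the other 993. They were low in repeats in 76.7% of cases and the others in 78.5%, and they touched an exon in 16.1% and 17%.

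Of the 916 genes, 174 also held a limb-only peak at another place (19%, 16.6 to 21.7%), which is 17% of the 1025 genes with a limb-only peak. Against the 4.58% of all genes this is a large share, but the genes with both were the longest of all, with a median of 327 kb against 86.5 kb for those without. Within a length class the difference was small. Among genes of 300 to 1000 kb, 42.4% of those with a glial-only peak had a limb-only peak (35.3 to 49.7%, n = 177), and 41.0% of all genes in the class did. In the class of 100 to 300 kb the values were 16.8% (12.9 to 21.6%, n = 280) and 15.1%. Only from 30 to 100 kb did the interval lie above the value of all genes, at 10.3% (7.18 to 14.6%, n = 262) against 6.38%.

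In most of the 174 genes the peaks of the 2 lists were far apart. The nearest distance had a median of 54.4 kb and reached 723 kb. It was over 100 kb in 59 genes, under 10 kb in 25 and under 1 kb in 7. The closest pair lay 0.118 kb apart in an intron of *Xkr6*, with a −log10(p) of 26.6 for the glial and 12 for the limb peak, neither holding a repeated word. *Brd3*, which encodes a bromodomain protein that reads acetylated histones, followed at 0.167 kb. Its 3 glial-only peaks (49.5, 41.7 and 66.8) alternated with limb peaks in the introns, and their repeated words made up 40.2 to 70.4%. *Drg1* and *Sfi1* overlap in this annotation, and both had 0.267 kb through the same glial-only peak.

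Next in distance were *Fam134b*, an endoplasmic reticulum gene, at 0.495 kb, and *5730419I09Rik* at 0.697 kb. *Mid1*, a ubiquitin ligase gene of the X chromosome, had 0.922 kb, with a glial-only peak of 33.3 among 3 limb-only peaks of 11.2 to 44.7. *Numa1*, for a spindle pole protein, had 1.64 kb. These pairs are where the requirement of no shared base decides membership. In all, 15 of the 1186 peaks lay within 1 kb of a limb peak, with −log10(p) values from 6.29 to 270 and a median of 33.3. Just beyond the other side of that line, the shared gene-body peak with the least overlap had 133 bases in common with a limb peak.

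Counting both lists, *Sfi1* held 23 peaks (12 glial-only and 11 limb-only). *Gm20388*, an entry with 1 transcript of 4435 kb that runs over 74 other protein-coding genes, held 14, of which 3 were glial-only, and all 3 lay in another gene as well. The *Fgfr2* entry had 13, of which 5 were glial-only, and none of the 13 lay in any transcript other than the very long one. The counts of these 2 entries therefore describe long stretches of the annotation and may belong to neighbouring genes. *Ctnna3* had 11, of which 7 were glial-only. *Zfp536*, a zinc finger gene known for repressing neuronal differentiation, had 3 glial-only peaks (55.7, 56.1 and 51.2) and 5 limb-only ones. In *Zfp536* one glial-only peak lay at 186 kb from the 5′ end and the other 2 at 376 and 377 kb, with the limb-only peaks from 264 to 372 kb.

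Lists of genes tied to glia, synapses, axon guidance and the limb were then counted, each beside the 4.09% of all genes and with its gene length. Genes listed as synaptic adhesion and scaffold had a glial-only peak in 13 of 40 (32.5%). They held 42 peaks in all, 8 of them in *Csmd1*, a gene of CUB and sushi domains. The median length of the 40 genes was 675 kb, and 37.2% of all genes of 300 to 1000 kb held a glial-only peak. The 6 with the strongest peaks were *Nrxn3* (112), *Nlgn1* (104), *Csmd1* (83.7), *Cntnap5b* (78.0), *Dlg2* (66.5) and *Opcml* (64.5). Limb-only peaks were in 17 of the same 40 genes.

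Ionotropic glutamate and GABA-A receptor genes, which encode ligand-gated ion channels, had a glial-only peak in 10 of 31 (32.3%), with a median length of 213 kb, and 14.9% of all genes of 100 to 300 kb held one. None of the 10 genes lay in that class, as *Grik5* spans 62.5 kb and the others over 300 kb. Of all genes of 300 to 1000 kb, 37.2% held a glial-only peak. *Grin2b* led with a −log10(p) of 76.2, and *Gria4* had 63.1. *Grik5* had 54.8, *Grik1* 52.7 and *Gabrg3* 51.9. Of the 15 peaks in these genes, 1 touched a coding exon, a weaker peak of *Grik1* (9.68). Limb-only peaks were in 6 of the 31.

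Cadherins and unclustered protocadherins, which mediate adhesion between cells, had 9 of 31 genes with a glial-only peak (29.0%, median length 139 kb), also against 14.9% in the class of 100 to 300 kb. The strongest were in *Cdh13* (86.1), *Pcdh1* (77.4), *Cdh7* (73.3), *Pcdh7* (66.5), *Cdh23* (51.3) and *Pcdh15* (47.1), all in introns. Of these genes, *Cdh7* (158 kb) lay in the class of 100 to 300 kb and *Pcdh1* (26.1 kb) was shorter. The others named were longer, from 394 to 1550 kb. Of all genes of 300 to 1000 kb, 37.2% held a glial-only peak, and 61.5% of those over 1000 kb did. Limb-only peaks were in 6 of the 31 cadherin and protocadherin genes. Axon guidance genes had a glial-only peak in 8 of 53 (15.1%, median length 146 kb), close to the 14.9% in the class of 100 to 300 kb. Limb-only peaks were in 9 of the 53. No list was tested against genes of its own lengths. *Unc5c*, a netrin receptor gene, had 77.2, *Sema3a*, for a secreted repellent, had 57.4, and the ephrin receptor genes *Epha4* and *Epha7* had 44.9 and 33.3. *Plxna4* had 26.5 and *Dcc* 24.1.

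Markers of glia and neural progenitors had a glial-only peak in 2 of 28 (7.14%, median length 13.9 kb), and 2.05% of all genes of 10 to 30 kb did. These were *Nfib*, a nuclear factor I gene, and *Gjb6*, which encodes connexin 30 of astrocytes. The *Nfib* peak had a −log10(p) of 37.9 in an intron, and the *Gjb6* peak had 22.3 at an untranslated exon. *Gjb6* spans 10.3 kb, but *Nfib* spans 416 kb, and 37.2% of all genes of 300 to 1000 kb held a glial-only peak. Limb-only peaks were also in 2 of the 28. The identity of the glial line itself could not be checked, since no expression values were part of the files.

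Limb patterning and chondrogenesis genes had 5 of 47 with a glial-only peak (10.6%, median length 39.0 kb), and 7 with a limb-only peak. Both counts include *Fgfr2* through its very long entry, and without it they were 4 (8.70%) and 6 of 46. Of all genes of 30 to 100 kb, 5.29% held a glial-only peak. Apart from *Fgfr2*, the genes were *Gli3* (53.3) and *Gli2* (9.45), transcription factors of hedgehog signalling, *Alx4* (44.5), a homeobox gene of anterior limb patterning, and *Sox6* (14.2), which acts in cartilage. All of these peaks were intronic. Of these 4 genes only *Alx4* (39.0 kb) lay in the class of 30 to 100 kb. *Gli2* spans 219 kb, *Gli3* 267 kb and *Sox6* 567 kb. A glial-only peak was held by 14.9% of all genes of 100 to 300 kb and by 37.2% of those of 300 to 1000 kb. *Gli2* and *Sox6* also held 1 limb-only peak each, and *Gli3* and *Alx4* held none. None of the 9 posterior HoxA and HoxD genes, whose median length was 4.02 kb, held a peak of either kind.

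By chromosome, chromosome 10 stood apart. It held 120 of the 1186 peaks (10.1%, 8.53 to 12%), or 2.37 per Mb of gene body. The other 18 autosomes ranged from 0.880 to 1.68 with a median of 1.10, and chromosome X had 0.289 with 13 peaks. Limb-only gene-body peaks on chromosome 10 came to 1.2 per Mb, inside their range of 0.804 to 1.81 on the other autosomes, and to 0.466 on the X. Chromosome 10 held 4.84% of limb-only gene-body peaks (3.79 to 6.17%). Among glial-only peaks outside gene bodies its share was higher too, at 130 of 1629 (7.98%, 6.76 to 9.40%). A high share on this chromosome was thus not particular to the gene-body peaks of the glial list. Chromosome Y had no glial-only gene-body peak and the mitochondrial genome had 1, in *mt-Co1*.

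The 120 peaks lay in 88 genes and were not one crowd. In steps of 10 Mb along chromosome 10 the density ranged from 1.15 to 4.07 peaks per Mb of gene body, highest from 50 to 60 Mb and from 80 to 90 Mb. Their median −log10(p) was 27.3, against 31.2 for peaks on other chromosomes. They touched an exon in 15.8% and were low in repeats in 80.0%, against 17% and 78.0% elsewhere, and 12.5% resembled a probe against 11.4%. The number of copies of chromosome 10 in the glial line was not measured, and its part in the density was not tested.

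**Figure D5:**
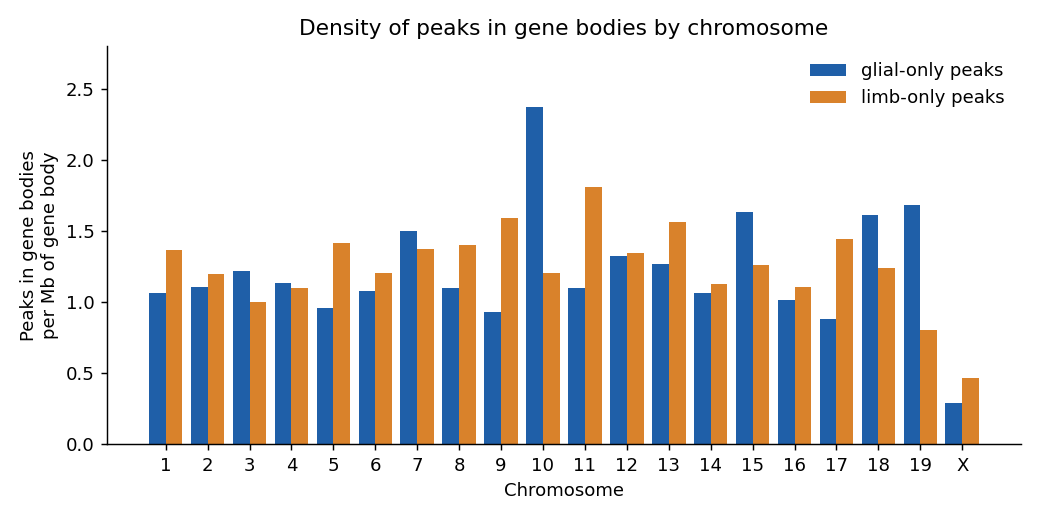
Number of gene-body peaks per Mb of gene body on each autosome and on chromosome X, for glial-only peaks (blue bars) and limb-only peaks (orange bars). Chromosome 10 has 2.37 glial-only peaks per Mb, above the 0.880 to 1.68 of the other autosomes, while its limb-only bar of 1.2 is within theirs.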

How the data were processed

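ChIRP-seq libraries of the limb mesenchyme and of the glial line (3 each) were processed by the authors. Reads were mapped uniquely to mm9 with Bowtie 0.12.9, as the submitters' processing notes give it, and normalized to the total read count, the lower of the odd and even values was kept at each position, and peaks were called against the input with MACS, whose version is not given in the sources used here. The deposited score of each peak is 10 × −log10(p), and it was divided by 10. Starts of 98.4% of the glial-only gene-body peaks fell on 5 neighbouring places of a 25-base grid, so positions are known only to about that step. Library depths are unknown, since the files hold no read counts.

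Peaks were intersected with each other and with protein-coding genes of GENCODE M1 (mm9). Exons were those of all transcripts. Promoter peaks came within 1 kb of the gene's 5′ end, and shares of window positions were counted over every start in the genome. Repeated words of 24 bases were counted on both strands of mm9, and probes were compared without gaps. Shares carry 95% Wilson intervals. Python 3.11.15, NumPy 2.4.6, pandas 2.3.3, SciPy 1.17.1, Numba 0.67.0 and Matplotlib 3.10.9 were used, and the code was tested on simulated data. Members and gene lists were chosen with earlier results of these data known, and genes were named by rule: those of the 10 strongest and 3 weakest peaks, of the 5 strongest at a coding exon and 8 strongest near a promoter, the 12 with most peaks, the 8 closest to a limb peak, the 5 with most peaks of both lists, up to 6 from each gene list, and those whose sequence is printed. A gene that this rule selects is not reported here. With 1 list per tissue no differences were tested.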

Additional observations from a re-analysis of the deposited data

How the results depend on the processing

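Of the 77 recomputed values, 19 were counted as moved and 58 as the same. The 58 include some sizeable drops, such as from 916 to 632 genes with a peak at 1e-20. With a p-value of 1e-20 or smaller, 777 peaks in these 632 genes were left, 98 genes held several, and the median −log10(p) was 46.2. At 5.9e-57 or smaller, 254 peaks in 227 genes were left, 25 genes held several, 2.36% of peaks lay near a promoter, and the median was 69.5. The promoter share was 1.43% within 250 bases, 4.55% within 2 kb and 7.67% around the 5′ ends of all transcripts. With the midpoint of the peak required in an exon, the exon share was 9.11%. Counting only limb peaks at 5.9e-57 or smaller, 5.24% of genes with a glial-only peak also had one. The share resembling a probe was 58.9% at 14 of 20 bases, 1.77% at 16 of 20 and 2.61% for a run of 12 identical bases. Peaks low in repeats made up 69.2% below 5% repeated words, 91.1% below 25%, and 91.1% with 36-base words.

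Exon and intron shares under either p-value cutoff stayed within the intervals of the report, as did the shares at least 1 kb from limb peaks and in repeat-poor peaks. Leaving out chromosome 10, or chromosomes Y and M, chosen after seeing the data, moved none of the 8 results recomputed. No paired analysis was possible because each tissue has 1 peak list. The files hold no read counts, so the depth behind each peak is unknown.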
